A study of Mus musculus with 4 samples.

Results

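The genes of the basement membrane network outside the laminins were compared between mouse embryonic stem cells with a G784E and with a wild-type copy of Smarca4. They are the 6 type IV collagen genes Col4a1 to Col4a6, the nidogen genes Nid1 and Nid2, the perlecan gene Hspg2 and the agrin gene Agrn. These 10 genes were taken by name from the count tables, which list 24428 genes, and all 10 were among the 15763 genes tested. The cells were 129SvEv embryonic stem cells at passage 15 to 20, grown in 15% serum with LIF and not treated. In every group 1 copy of Smarca4, which encodes the ATPase of the BAF chromatin remodelling complex, was wild-type and fused to GFP. The other copy carried a V5 tag and was wild-type in the WT group and G784E, the change that the study calls dominant-negative, in the G784E group. Each group had 2 RNA-seq libraries of poly(dT)-captured RNA, and whether these came from separate cultures or clones is not given in the labels. The p-values therefore rest on the spread of these libraries alone, and that spread may be technical.

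The basement membrane is a thin sheet of matrix under epithelia. Type IV collagen chains wind into triple-helical trimers that join into a network, nidogens bind that network to the laminin polymer, and the heparan sulfate proteoglycans perlecan and agrin bind both and tie them to growth factors and cell surface receptors. The collagen IV genes lie in head-to-head pairs, each pair starting from a common region in opposite directions. Products of Col4a1 and Col4a2 form the trimer found in most basement membranes, while those of Col4a3, Col4a4, Col4a5 and Col4a6 make up trimers of specialised membranes such as that of the kidney glomerulus. In the early mouse embryo, primitive endoderm and above all its parietal derivative are known for a heavy output of the Col4a1 and Col4a2 chains, laminin and nidogen.

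The start regions are shown first because the head-to-head layout bears on how Col4a1 and Col4a2 are compared. Promoter windows of 300 bases, from 250 before to 50 after a start, were available from RefSeq (build GRCm38.p6) for 8 of the 10 genes, and Col4a3 and Nid2 had none. The annotated starts of Col4a1 (minus strand) and Col4a2 (plus strand) cross, so that the first 22 bases of both transcripts are the 2 strands of 1 stretch, chr8:11312805-11312826, printed here from each side with a GC box (GGGCGG, or CCGCCC on the other strand) in capitals:
Col4a2: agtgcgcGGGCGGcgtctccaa
Col4a1: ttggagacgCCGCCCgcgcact

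The starts of Col4a5 and Col4a6 on chromosome X point away from each other across 1342 bases and their windows do not meet. The windows of Col4a1 and Col4a2 held 74% and 73.7% G and C and 37 and 33 CpG dinucleotides, against 52.7% and 11 for Col4a5, 48.3% and 3 for Col4a6, and a median of 52.7% and 7 over 32851 windows of the same length. Hspg2, Agrn and Nid1, linker and proteoglycan genes that did not pass the test below, are shown for comparison by 120 bases upstream of annotated exons, on the strand of the gene, with GC boxes and CCAAT boxes (CCAAT, or ATTGG on the other strand) in capitals. They lie at chr4:137468649-137468768 (Hspg2, plus strand), chr4:156197489-156197608 (Agrn, minus strand) and chr13:13437431-13437550 (Nid1, plus strand):
Hspg2: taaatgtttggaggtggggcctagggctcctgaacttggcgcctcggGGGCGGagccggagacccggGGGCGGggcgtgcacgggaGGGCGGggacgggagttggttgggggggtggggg
Agrn: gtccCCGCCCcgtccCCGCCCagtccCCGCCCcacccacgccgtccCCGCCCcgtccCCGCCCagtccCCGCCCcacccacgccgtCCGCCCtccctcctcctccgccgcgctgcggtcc
Nid1: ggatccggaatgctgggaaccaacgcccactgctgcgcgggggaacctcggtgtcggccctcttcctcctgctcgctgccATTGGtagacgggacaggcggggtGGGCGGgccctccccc

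The Agrn stretch holds 7 GC boxes, that of Hspg2 3, and that of Nid1 1 together with 1 CCAAT box. In the full windows, both strands counted, Col4a2 had 3 GC boxes and 1 CCAAT box and Col4a1 had 1 of each. The Col4a4 window had none of either. A GC box occurred in 35.7% and a CCAAT box in 37.4% of all windows. The letters GATAA, the core of the GATA factor motif, were in no member's window on either strand and in 25.4% of all windows, which says only that these letters are not in these 300 bases.

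The depth in the gene rows was 6226145 and 8895433 counts for the G784E libraries and 7027108 and 10083442 counts for the WT libraries. Thus 1 count stood for 0.102 to 0.164 CPM (counts relative to library size, scaled by the TMM method). Olfactory receptor genes, used as a measure of reads from genes that stem cells are not known to express, summed to 698 and 635 CPM in replicate 1 of G784E and WT and to 296 and 197 CPM in replicate 2. Smarca4 stood at 3868 and 3580 CPM in G784E and 2423 and 2553 CPM in WT, a log2 fold change of 0.58 (SE 0.19; edgeR, adjusted p = 0.119) that passed in DESeq2, in limma-voom and with upper-quartile scaling, among other alternatives, at adjusted p-values of 0.00808, 0.0300 and 0.0108. The counts do not separate its 2 alleles and so do not check the labels. Levels are given below as CPM, or as CPM per kilobase of annotated exon where genes are compared with each other, and errors as SD over the n = 2 libraries of a group. Changes are log2 fold changes, G784E over WT, each with its standard error (SE), and were tested with edgeR's quasi-likelihood test and Benjamini-Hochberg adjustment over all tested genes.

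Col4a1, Col4a2 and Nid2 fell in G784E cells, and none of the 10 genes rose. In bulk RNA such as this, fewer cells of a type and less RNA per cell cannot be told apart. Over all tested genes, 1.89% were lower and 0.672% higher by the same test. DESeq2 and limma-voom called the same number of members lower, 3, against 2.26% and 2.31% of the genes that each tested, and neither called a member higher. No member was higher at an unadjusted p under 0.05 in edgeR either. Over all 15763 tested genes, 1831 had an unadjusted p under 0.05, both directions counted. The median log2 fold change of the 10 genes was -0.45, against 0.00 (-0.00158) over all tested genes. In 6 of the 10 genes (Col4a1, Col4a2, Nid1, Nid2, Hspg2 and Agrn) both G784E libraries lay below both WT libraries, and in no gene did both lie above. Such separation was frequent over all tested genes, 19.4% in the downward and 19.4% in the upward direction.

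**Figure D1:**
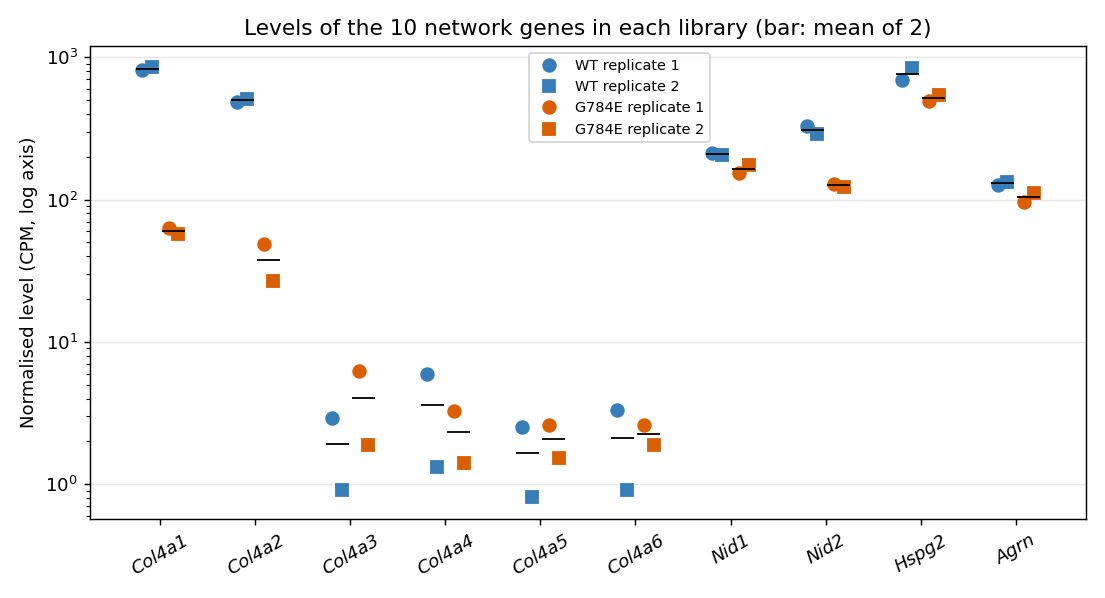
Normalised level (CPM, log axis) of each of the 10 network genes in the 2 WT (blue) and 2 G784E (orange) libraries; circles are replicate 1, squares replicate 2 and bars the mean of 2. Col4a1 and Col4a2 lie at 486 to 847 CPM in WT and at 27.0 to 63.0 CPM in G784E, while Col4a3 to Col4a6 stay under 7 CPM in every library.

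Col4a1 and Col4a2 encode the chains of the widespread collagen IV trimer, and they showed the largest changes of the 10 genes. Col4a1 was read at 817 and 847 CPM in the WT libraries and at 63.0 and 56.9 CPM in the G784E libraries. The groups were far apart and the libraries within each group close. This is a 13.9-fold lower level at an SE of 0.22 around the log2 fold change of -3.80 (adjusted p = 5.34e-11 in edgeR). Col4a1 ranked above 99.5% and 99.3% of the tested genes in the WT libraries and above 81.0% and 78.0% in the G784E libraries, so it remained well above the median gene.

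Col4a2 was read at 486 and 508 CPM in WT and at 48.8 and 27.0 CPM in G784E. Here the G784E libraries differed more from each other than the WT libraries did. The level was 13.1-fold lower, and the log2 fold change of -3.72 had an SE of 0.26 (adjusted p = 7.64e-10 in edgeR). Between libraries of the same number, the log2 difference of Col4a2 was -3.30 for replicate 1 and -4.21 for replicate 2, and that of Col4a1 -3.69 and -3.88. Col4a1 and Col4a2 passed the test in all 12 alternatives, with log2 fold changes of -3.85 to -3.70 and of -4.18 to -3.33.

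The balance of the 2 partner genes did not differ detectably between the groups. Per kilobase, Col4a1 stood above Col4a2 by a ratio of 1.49 and 1.48 in WT and of 1.15 and 1.87 in G784E. The G784E values lay on either side of the WT values, and the log2 ratio differed by -0.02 (G784E minus WT; exact two-sided permutation test over the 4 libraries, p = 1.0). The direction of this difference depended on the library: it was 0.33 when G784E replicate 1 was left out and -0.38 when G784E replicate 2 was. With 2 libraries against 2, the smallest p that this test allows is 0.333.

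The other collagen IV pairs were near the detection limit in both groups. Col4a3, whose product belongs to the trimer of the glomerular basement membrane, was read at 2.91 and 0.914 CPM in WT (22 and 9 counts) and at 6.22 and 1.89 CPM in G784E (38 and 16 counts). Its partner Col4a4 was read at 5.94 and 1.32 CPM in WT (45 and 13 counts) and at 3.27 and 1.41 CPM in G784E (20 and 12 counts). In both genes replicate 1 exceeded replicate 2 in each group, as did the summed olfactory receptor reads, and the groups overlapped.

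Col4a5, the X-linked gene that is mutated in most families with Alport syndrome, was read at 2.51 and 0.812 CPM in WT and at 2.62 and 1.53 CPM in G784E. Col4a6, its neighbour, was read at 3.30 and 0.914 CPM in WT and at 2.62 and 1.89 CPM in G784E. Again replicate 1 was the higher library in each group, and the groups overlapped in both genes.

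None of these 4 genes passed the test, and the intervals of their changes were wide. The log2 fold change was 1.08 (SE 0.90; 95% interval -0.78 to 2.94) for Col4a3, -0.63 (SE 0.89; -2.47 to 1.21) for Col4a4, 0.32 (SE 1.11; -1.98 to 2.62) for Col4a5 and 0.10 (SE 1.03; -2.02 to 2.22) for Col4a6, with edgeR adjusted p-values of 0.796, 0.949, 0.999 and 1.0. For the reads as counted, a change of the size seen for Col4a1 lay outside these intervals. A change of 2-fold in either direction lay within those of Col4a4, Col4a5 and Col4a6. Per kilobase, the 4 genes stood at 1.58 to 3.20 times the mean olfactory receptor level of the same library, compared with 412 to 2050 times for Col4a1 and Col4a2 in WT and 37.8 to 92.2 times in G784E. How much of the reads of Col4a3 to Col4a6 is background of this kind was not tested. The intervals therefore do not exclude a change of the size of Col4a1's in the transcripts themselves.

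**Figure D2:**
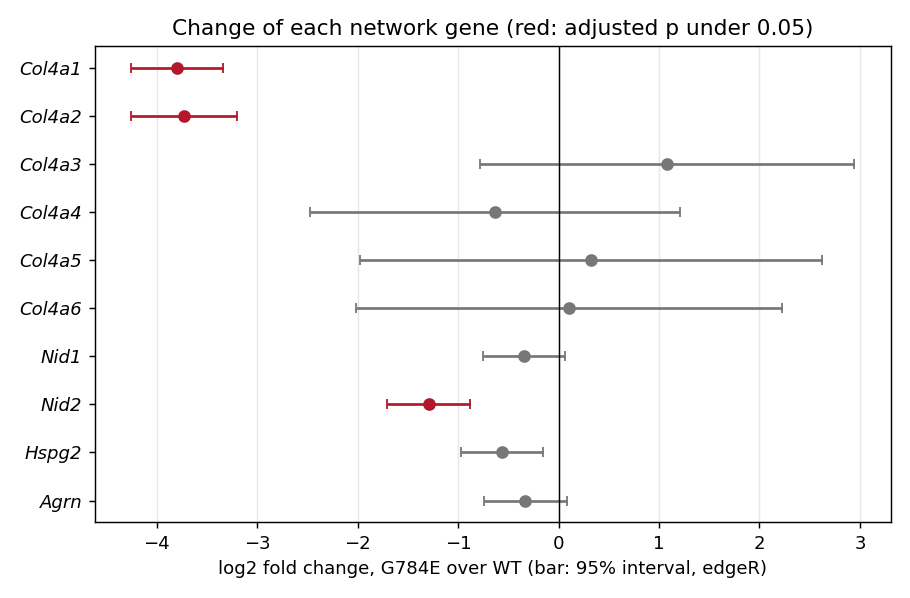
log2 fold change of G784E over WT for each network gene (points) with its 95% interval from edgeR (bars); red marks an adjusted p under 0.05. Col4a1 (-3.80) and Col4a2 (-3.72) lie apart from Nid2 (-1.29), and the intervals of Col4a3 to Col4a6 span 0.

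Within collagen IV, the share of the major pair was lower in both G784E libraries than in both WT libraries. The Col4a1 and Col4a2 pair made up 98.9% and 99.7% of collagen IV counts in the WT libraries (Wilson 95% intervals 98.7 to 99.1% and 99.6 to 99.8%) and 88.4% and 92.6% in the G784E libraries (85.9 to 90.4% and 90.5 to 94.2%). Reads copied in the PCR are counted as if independent, so these intervals hold no error other than that of counting. The pair of Col4a3 and Col4a4 summed to 8.85 and 2.23 CPM in WT and 9.49 and 3.30 CPM in G784E, and that of Col4a5 and Col4a6 to 5.81 and 1.73 CPM in WT and 5.24 and 3.42 CPM in G784E. The levels of these 2 pairs overlapped between the groups, while their shares of collagen IV counts were higher in both G784E libraries (3.64 and 7.50% against 0.164 and 0.671% for Col4a3 and Col4a4). The Col4a1 and Col4a2 pair itself summed to 1328 ± 36.1 CPM (SD, n = 2) in WT and 97.8 ± 19.8 CPM (SD, n = 2) in G784E.

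Among the linker genes, Nid2 fell and Nid1 did not pass the test. Nid2, which encodes nidogen-2, was read at 330 and 287 CPM in WT and at 129 and 123 CPM in G784E. Both G784E libraries were below both WT libraries and close to each other. The level was 2.45-fold lower, and the log2 fold change of -1.29 had an SE of 0.20 (adjusted p = 0.000273 in edgeR). It passed in all 12 alternatives, at -1.39 to -1.19.

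Nid1, which encodes nidogen-1, the first described link between laminin and collagen IV, was read at 213 and 205 CPM in WT and at 154 and 176 CPM in G784E. The groups did not overlap. The log2 fold change was -0.34 (SE 0.20; 95% interval -0.75 to 0.06; edgeR, adjusted p = 0.567). Per kilobase, Nid1 stood at 0.482 and 0.532 of the level of Nid2 in WT and at 0.884 and 1.07 of it in G784E. The log2 ratio of Nid1 to Nid2 was therefore higher by 0.94 in G784E, with no overlap between the groups (exact two-sided permutation test, p = 0.333, the smallest possible; adjusted over the 8 ratios computed, 0.381).

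The proteoglycan genes Hspg2 and Agrn lay lower in G784E without passing the test. Hspg2, which encodes perlecan, was the member with the most reads per gene in G784E, at 491 and 543 CPM, and stood at 687 and 839 CPM in WT. The WT libraries differed from each other by about as much as the nearest libraries of the 2 groups did. The log2 fold change was -0.56 (SE 0.20; 95% interval -0.97 to -0.15), at an unadjusted p of 0.00953 and an adjusted p of 0.184 in edgeR. Hspg2 passed with upper-quartile scaling (-0.56, adjusted p = 0.0221), where 1.85% of all tested genes were called lower. Without a single library its log2 fold change ran from -0.70 to -0.41, none of which passed, and over all alternatives its adjusted p ran from 0.000339 to 0.753.

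Agrn encodes agrin, which is best known for clustering acetylcholine receptors at the neuromuscular junction and is also a basement membrane component. It was read at 126 and 134 CPM in WT and at 96.2 and 111 CPM in G784E. The G784E libraries were lower with no overlap, by 1.26-fold in the means (log2 fold change -0.33, SE 0.20; 95% interval -0.74 to 0.08; edgeR, adjusted p = 0.613). The ratio of Hspg2 to Agrn per kilobase was 3.53 and 4.07 in WT and 3.31 and 3.19 in G784E, a log2 difference of -0.22 (exact two-sided permutation test, p = 0.333).

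Compared per kilobase, the order of the members' levels differed between the groups. In WT it ran from Col4a1 (111 ± 2.80 CPM per kilobase) through Col4a2 (75.0 ± 2.34), Nid2 (59.7 ± 5.80), Hspg2 (53.3 ± 7.54) and Nid1 (30.1 ± 0.822) to Agrn (13.6 and 14.4 in the 2 libraries). Nid2 and Hspg2 overlapped in that order and the other neighbours did not. In G784E the order was Hspg2 (36.1 ± 2.60), Nid2 (24.4 ± 0.930), Nid1 (23.7 ± 2.29), Agrn (11.1 ± 1.09), Col4a1 (8.03 ± 0.578) and Col4a2 (5.72 ± 2.33), with Nid2 and Nid1 overlapping. Col4a3 to Col4a6 were lowest in both groups, with means of 0.192 to 0.406 CPM per kilobase, and their order could not be told apart from the spread between libraries.

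The collagen IV genes together held 54.2% and 54.7% of the summed level per kilobase of the 10 genes in the WT libraries and 16.0% and 11.2% in the G784E libraries. Col4a1 stood at 1.72 and 2.04 times Nid2 per kilobase in WT and at 0.337 and 0.322 times in G784E, a log2 difference of -2.51. Against Nid1, Hspg2 and Agrn the log2 ratio of Col4a1 differed by -3.45, -3.24 and -3.46, and that of Nid2 to Hspg2 by -0.73. These 5 ratios were chosen after their values were seen. In all 5 the groups did not overlap, and each gave the smallest possible exact permutation p of 0.333 (0.381 adjusted over 8 ratios).

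**Figure D3:**
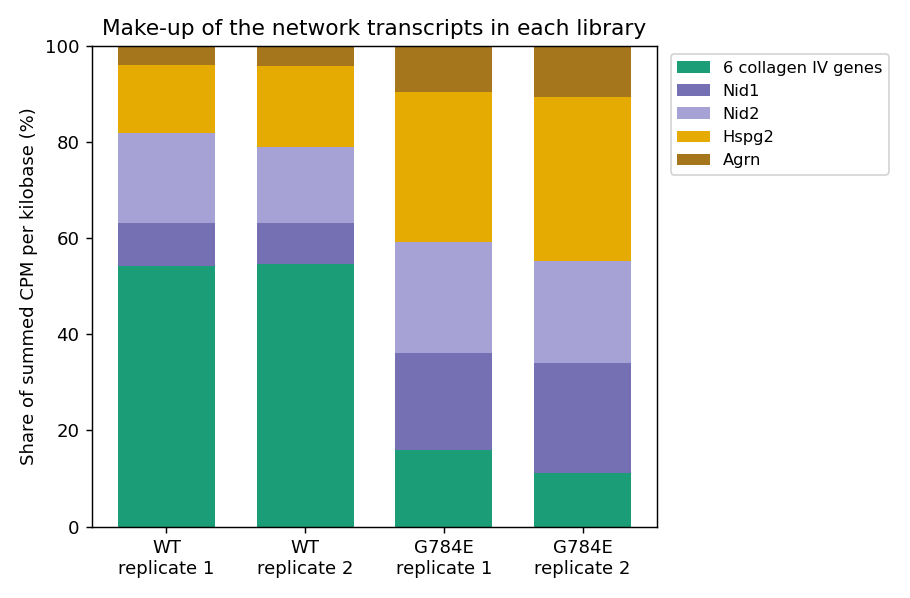
Share (%) of each component in the summed CPM per kilobase of the 10 network genes, 1 bar per library. The 6 collagen IV genes make up 54.2% and 54.7% in WT and 16.0% and 11.2% in G784E, and Hspg2 is the largest single component in both G784E libraries.

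No tested gene next to Col4a1, Col4a2 or Nid2 on the chromosome was called lower in edgeR with all 4 libraries. Of the 5 protein-coding genes on either side of the Col4a1 and Col4a2 pair, 8 of 10 were tested. Of these, 1 (Irs2) was at an unadjusted p under 0.05 in edgeR, against 1831 of all 15763 tested genes. Of the 8 genes, 0 passed in edgeR, in DESeq2 or in limma-voom. Their log2 fold changes ran from -0.76 (Irs2, an insulin receptor substrate; 24.6 and 29.1 CPM in WT, 18.7 and 13.2 CPM in G784E) to 0.29 (Ing1, a chromatin-binding protein). Irs2 passed as lower when G784E replicate 1 was left out (-1.01, adjusted p = 0.0229 in edgeR). Around Nid2, 8 of 10 neighbours were tested and ran from -0.74 to 0.86. The 1 called by edgeR was Kcnk5, a potassium channel gene, which was 1.82-fold higher (edgeR, adjusted p = 0.0451), a call that ended in DESeq2 (log2 fold change 0.87, adjusted p = 0.0726) and when any library other than G784E replicate 2 was left out (0.65 to 0.92 in edgeR), among other alternatives. The gene whose annotated exons overlap the exons of Nid2 by 437 bases on the opposite strand, 2700060E02Rik, had a log2 fold change of 0.09 (SE 0.24).

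The genes whose profile over the 4 libraries was nearest to that of Col4a1 (Euclidean distance between centred log2 levels, among 9875 genes with a mean of at least 5 CPM) were Stard8, a RhoGAP (distance 0.103), Lrp2, the endocytic receptor megalin (0.235), Gata6, an endoderm transcription factor (0.357), Cemip, a hyaluronan-binding protein (0.362), and Hs3st1, a heparan sulfate sulfotransferase (0.481). The log2 fold changes of these 5 ran from -4.09 (Stard8) to -3.70 (Hs3st1), against -3.80 for Col4a1. Profiles used levels with 0.5 CPM added, which shrinks differences of genes with low levels, such as Stard8 (3.27 and 2.83 CPM in G784E). Gata6 was read at 33.2 and 32.4 CPM in WT and at 2.29 and 2.59 CPM in G784E. Nearest to Hspg2 were Fam102a, Dcaf17, Ppfibp1, Fam135a and Ticam1, at distances of 0.017 to 0.0637 and log2 fold changes of -0.62 to -0.58, none of which passed the main test. With 4 libraries, such likeness describes these samples only.

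Partners of the collagen IV network in the same membranes fell in part. The counts of called genes in this and the later lists stand beside 1.89% lower and 0.672% higher over all tested genes. Where a list held 1 called gene, that count is not read as a result about the list. Of 11 tested laminin chain genes, 4 fell, and the 3 with the smallest adjusted p were those whose products form laminin-111: Lama1 (9.23-fold; 1462 and 1596 CPM in WT, 157 and 174 CPM in G784E), Lamb1 (4.76-fold) and Lamc1 (2.16-fold). The laminin median was -0.55. Of 28 tested further matrix genes of basement membranes, 3 fell, with a median of -0.13. These were Sparc (6.71-fold; 1898 and 1866 CPM in WT, 286 and 275 CPM in G784E), a collagen-binding protein, Tinagl1 (6.26-fold) and Pxdn (3.15-fold), the peroxidase that forms the sulfilimine crosslinks of collagen IV. The log2 fold change of Pxdn, -1.63, became -2.31 when G784E replicate 2 was left out and -1.18 when G784E replicate 1 was. Col18a1, which encodes another heparan sulfate proteoglycan of basement membranes, stood at 107 and 114 CPM in WT and at 87.5 and 94.0 CPM in G784E (-0.28, SE 0.20; adjusted p = 0.714 in edgeR).

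Of 24 tested genes for the folding, modification and export of collagen, 5 fell and 19 did not pass, with a median of -0.22. Serpinh1, the collagen chaperone HSP47, was 7.90-fold lower, at 93.2 and 97.8 CPM in WT and 10.6 and 13.6 CPM in G784E. The prolyl 4-hydroxylase subunits P4ha2 (5.42-fold) and P4ha1 (3.54-fold), the lysyl hydroxylase Plod2 (3.20-fold) and the prolyl 3-hydroxylase P3h2 (3.86-fold) were the others. P4ha1, at -1.84, was -2.44 without G784E replicate 1. P3h2, at -1.93, missed the threshold when WT replicate 1 was left out (-1.97, adjusted p = 0.289 in edgeR) and when WT replicate 2 was (-1.90, adjusted p = 0.447). It also missed the threshold in limma-voom, in DESeq2, with upper-quartile scaling and under the stricter filter, where its adjusted p-values were 0.124, 0.0562, 0.0683 and 0.0557 in that order. P4hb, the other subunit of the prolyl 4-hydroxylase, stood at 384 and 433 CPM in WT and at 362 and 419 CPM in G784E (-0.06, SE 0.20; adjusted p = 0.997 in edgeR). Of the 6 collagen crosslinking enzymes, Loxl2 (3.85-fold), a lysyl oxidase that acts on collagen IV, and Pxdn fell, and the median was -0.50. Pxdn is also counted above among the further matrix genes.

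Among 17 tested receptors of the network, Itgav (1.76-fold) and Itga3 (1.74-fold) fell, and the median was -0.33. Both calls were lost without WT replicate 1 (-0.90, adjusted p = 0.101, and -0.89, adjusted p = 0.186 in edgeR) and without WT replicate 2 (-0.72, adjusted p = 0.273, and -0.71, adjusted p = 0.397). That of Itga3 was also lost without G784E replicate 1 (-0.72, adjusted p = 0.0584) and with RLE scaling (-0.80, adjusted p = 0.0602). Itga1, the collagen IV-binding integrin subunit, stood at 14.5 and 15.4 CPM in WT and 7.53 and 5.89 CPM in G784E (-1.17, SE 0.34; edgeR, adjusted p = 0.0711). It passed when G784E replicate 1 was left out (-1.33, adjusted p = 0.0188). Dag1, the receptor that agrin, perlecan and laminin share, stood at 233 and 254 CPM in WT and at 259 and 303 CPM in G784E (0.21, SE 0.20; adjusted p = 0.851 in edgeR). Of 19 tested matrix proteases and inhibitors, Adamts9 (5.31-fold) and Ctsl (2.07-fold) fell, with a median of 0.06.

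Collagens of other types mostly did not pass the test, which does not show that they stayed the same. Of 25 tested genes, Col27a1 alone fell in edgeR (2.72-fold; 27.2 and 26.7 CPM in WT, 13.6 and 6.24 CPM in G784E; adjusted p = 0.00809). Its log2 fold change, -1.47, became -2.09 when G784E replicate 1 was left out and -0.97 when G784E replicate 2 was. The median of these 25 was -0.03, and they ran from -1.76 (Col9a2, SE 1.16) to 0.68 (Col3a1, SE 0.84). Errors were large for genes with few reads, such as Col9a2. Col1a1, of the fibrillar collagen I of connective tissue, stood at 39.5 and 25.3 CPM in WT and at 52.2 and 36.8 CPM in G784E, with overlapping groups. Of 21 tested heparan sulfate synthesis genes, Hs3st1 fell 12.8-fold, the median was -0.06, and the other 20 did not pass.

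**Figure D4:**
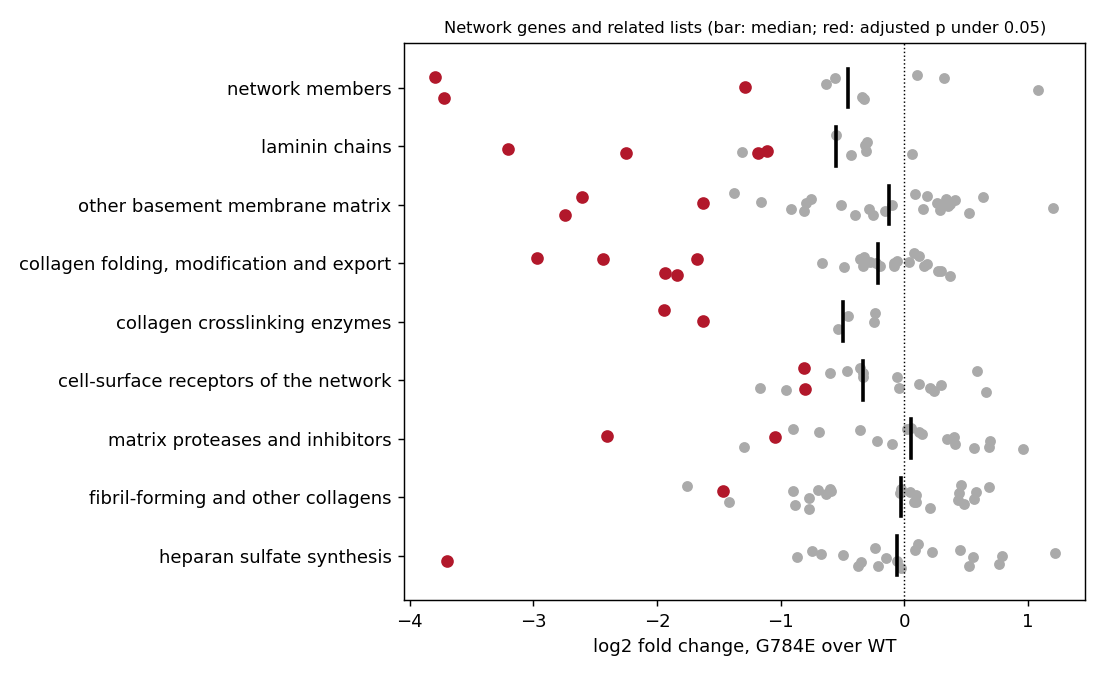
log2 fold change (G784E over WT) of each tested gene, 1 row per list; red points have an adjusted p under 0.05 in edgeR and black bars are list medians. The called genes lie to the left of 0 in all 9 rows, with medians from -0.55 (laminin chains) to 0.06 (matrix proteases and inhibitors).

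Markers of other cell types moved in the same libraries. Of 20 tested markers of primitive, visceral and parietal endoderm, 12 fell and the median was -2.23. Their summed level was 1362 and 1526 CPM in WT and 159 and 150 CPM in G784E, and none was at 0 in every library. By the smallest adjusted p, Cubn, Srgn and Lrp2 led this list. Lrp2, a receptor of visceral endoderm, was read at 382 and 482 CPM in WT and at 29.9 and 30.4 CPM in G784E. The other 8 tested markers did not pass. Apob had the highest log2 fold change of the 20, 0.97 (SE 0.30, edgeR adjusted p = 0.108). It was read at 9.90 and 8.43 CPM in WT and at 16.85 and 18.85 CPM in G784E. The part of endoderm-like cells in the levels of Col4a1, Col4a2 and Nid2 was not tested. Of 14 tested embryonic stem cell markers 0 passed in edgeR, DESeq2 or limma-voom. At an unadjusted p under 0.05 in edgeR were 2 of the 14, against 1831 of all 15763 tested genes. The stem cell marker sum was 3630 and 4179 CPM in WT and 4507 and 4460 CPM in G784E.

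Of 15 tested feeder fibroblast markers, Cald1 fell 1.94-fold (log2 fold change -0.90 and adjusted p = 0.0801 in edgeR without WT replicate 1). The fibroblast sum was 451 and 396 CPM in WT and 355 and 326 CPM in G784E. Cald1 alone held 207 and 191 CPM of it in WT and 108.5 and 96.8 CPM in G784E. The median log2 fold change of the 15 markers was -0.08, and the other 14 did not pass. Of 10 tested trophectoderm markers, Tead4, Krt19 and Eomes fell, and the sum was 151 and 142 CPM in WT and 85.6 and 77.9 CPM in G784E. The median log2 fold change of the 10 was -1.34, and the other 7 did not pass. Tfap2c had the highest, 0.65 (SE 0.24, edgeR adjusted p = 0.215). It was read at 19.7 and 20.2 CPM in WT and at 32.4 and 30.3 CPM in G784E. The Eomes call was lost without WT replicate 2 (-1.69, edgeR, adjusted p = 0.0982). Endothelial markers, of a further cell type with an abundant basement membrane, summed to 95.2 and 77.3 CPM in WT and 64.8 and 43.5 CPM in G784E. Of the 8 tested, 0 passed in edgeR and in DESeq2 and 1 in limma-voom. At an unadjusted p under 0.05 in edgeR were 3 of the 8, against 1831 of all 15763 tested genes. The part of these cell types in the results was not tested.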

How the data were processed

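The authors deposited 1 table of read counts per gene for each of 4 libraries, whole numbers that were not normalized. The tools named in the submitters' processing notes are HTSeq, DESeq2, Bowtie2 2.1.0 and CASAVA 1.8.2, and the build is mm9. The order of steps, annotation, counting mode and use of strand are not given in these sources, so reads of overlapping antisense genes cannot be told apart. Summary rows, which held 83.3% to 88.7% of the counts in each table, were left out. Of the counts in gene rows, Rn45s held 16% and 10.6% in the G784E libraries and 11.9% and 10% in the WT libraries. Groups came from the labels.

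Counts were fitted with edgeR 4.0.16 (R 4.3.3; TMM scaling; filterByExpr with a minimum count of 10 and total of 15; glmQLFTest; group alone, 2 residual degrees of freedom; adjusted p threshold 0.05). The SE is the fold change divided by the square root of F. The common coefficient of variation was 0.317. Chi-square per degree of freedom was 15.4 and 9.22 between replicates of G784E and WT, so no library was a copy. A floor of 3 counts was 0.305 to 0.491 CPM. The procedure was also run on simulated data with 1 common spread for all genes and no replicate effect. Such data do not give its error rate in these libraries. Exon lengths came from GENCODE M21 (GRCm38), matched by symbol; profiles used log2(CPM + 0.5).

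Members and lists were chosen with earlier results of these data known. Named genes were the members, Smarca4, up to 3 called genes per list and direction with the smallest adjusted p, and the 5 nearest profiles of Col4a1 and Hspg2. Chromosomal neighbours and other named genes were chosen after values were seen. Ratios needed at least 10 counts of both genes in every library, which left out those of Col4a3 to Col4a4 and Col4a5 to Col4a6. Results were recomputed with DESeq2 1.42.0, limma-voom (limma 3.58.1), a replicate block, other scalings (upper-quartile, RLE), all genes kept, stricter minimums (1 CPM in 2 libraries, total 50), without Rn45s and without each library. The values of 1 further gene are not reported here.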

Additional observations from a re-analysis of the deposited data

How the results depend on the processing

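The calls of Col4a1, Col4a2 and Nid2, and the absence of a call for Nid1 and Agrn, held in all 12 alternatives; Col4a3 to Col4a6 passed in none, and DESeq2 gave them no adjusted p. Hspg2 passed with upper-quartile scaling (-0.56, edgeR, adjusted p = 0.0221) and with a replicate block (-0.56, adjusted p = 0.000339); the cause was not tested. The direction of genes with few counts or small changes turned with 1 library left out: Col4a4 ranged from -1.35 to 0.81, Col4a5 from -0.28 to 1.33 (-0.09 without G784E replicate 1), Col4a6 from -0.55 to 1.28 (-0.14 without G784E replicate 1), P4hb from -0.15 to 0.056 and 2700060E02Rik from -0.075 to 0.26. Col4a3 did not turn but ranged from 0.0058 (without G784E replicate 1) to 2.12 (without WT replicate 1). The depth of Col4a3 to Col4a6, 8 to 45 counts a library, limits what could be seen.

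Over all tested genes, 298 were lower and 106 higher. These were 658 and 546 with the replicate block, 186 higher in limma-voom, and 156 to 532 lower and 29 to 307 higher with a library left out. Such fits take the spread of a group's remaining library from the other group. Replicate numbers are shared by the groups without a label that pairs them; the deviations of replicate 1 correlated at 0.458 across genes between the groups, and the block changed the call of no member other than Hspg2. Of other named genes, Smarca4 (adjusted p = 1.59e-05 in edgeR), Itga1 (0.0258), Dcaf17 (0.0130), Ppfibp1 (0.0191) and Fam135a (0.00978) passed with the block and not in the main test. On raw counts, collagen IV made up 48.7% of the 10 genes in WT, in place of 54.4% per kilobase.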
